A study of Mus musculus with 2 samples.

Results

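The genes described here encode the proteasome, the barrel-shaped protease that degrades ubiquitin-tagged proteins. They were taken by symbol, as every gene listed in both single-cell expression tables whose name begins with Psma, Psmb, Psmc, Psmd, Psme, Psmf or Psmg. The rule found 46 of the 6001 genes that both tables list. Of these, 7 encode the alpha ring of the 20S core, 7 its constitutive beta ring, 3 the immunoproteasome beta subunits, 6 the ATPases of the 19S cap, 11 the non-ATPase cap subunits, 3 cap assembly chaperones (*Psmd5*, *Psmd9*, *Psmd10*), 3 activators (*Psme1*, *Psme2*, *Psme3*), 1 the inhibitor *Psmf1* and 4 chaperones of the core (*Psmg1* to *Psmg4*). *Psmc3ip*, a meiotic recombination factor, met the rule by its letters alone and is not a subunit. *Psme4*, an activator, was listed in the WT table alone with 974 UMIs (unique molecular identifiers, each marking 1 captured RNA molecule), and *Psme2b*, a near copy of *Psme2*, in the Cko table alone with 538 UMIs, so neither is among the 46.

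The cells were bone marrow cells of the fore- and hindlimbs of C57BL6/J mice at postnatal day 21, taken after red cell lysis and measured with 10x 3′ libraries. The WT library came from a mouse with both alleles of the site-1 protease gene *Mbtps1* (S1P) floxed and the Cko library from a floxed mouse that also carried Osx-Cre, a Cre transgene driven by the osterix promoter of the bone-forming lineage. Each genotype is 1 mouse and 1 library, so no comparison between genotypes has a replicate check. All intervals given are 95% intervals, they cover counting error only, and no p-value can be given. The deleted exon lies far from the 3′ end that these libraries tag, so *Mbtps1* UMIs check nothing: in erythroid-like cells it stood at 28.1 CPM (UMIs of a gene per 1000000 UMIs) in WT and 21.5 CPM in Cko. The WT library held 6271 barcodes after filtering with a median of 6977 UMIs, and the Cko library 3662 with a median of 7440. The 2 libraries shared 28 barcodes.

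The 20S core is a stack of alpha and beta rings, and 3 of the beta subunits carry the cutting sites: *Psmb6* (beta1), *Psmb7* (beta2) and *Psmb5* (beta5). In leukocytes, and in other cells exposed to interferon-gamma, these are replaced at assembly by *Psmb9*, *Psmb10* and *Psmb8*, giving the immunoproteasome, whose products suit loading onto MHC class I. *Psme1* and *Psme2* form the PA28 alpha-beta activator, while *Psme3* forms PA28 gamma, a nuclear activator. Maturing red cell precursors are known to discard most of their proteins as hemoglobin accumulates.

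*Psmb8* (chr17:34197721-34201454) and *Psmb9* (chr17:34181987-34187764) lie close together in the MHC region in the GENCODE annotation of GRCm38, and *Psmb9* overlaps *Tap1* on the opposite strand. *Psmb10* lies elsewhere, at chr8:105935735-105938444. RefSeq promoter windows (GRCm38.p6, 250 bases before to 50 after the start) were matched by symbol for 39 of the 46 members. The windows of the immune subunits *Psmb8*, *Psmb9* and *Psmb10*, whose balance with their partners differed between cell types, are shown with those of the constitutive partners *Psmb5* and *Psmb6* and of *Psme3*, the member that rose most in late erythroid cells. No window was matched for *Psmb7*. Each is written 5′ to 3′ on the gene's strand, and capitals mark matches on either strand to TGACNNNGC (the antioxidant response element), to the interferon-stimulated response element or to TTCNNNGAA (the gamma-activated site).
Psmb8, chr17:34197945-34198244, plus strand: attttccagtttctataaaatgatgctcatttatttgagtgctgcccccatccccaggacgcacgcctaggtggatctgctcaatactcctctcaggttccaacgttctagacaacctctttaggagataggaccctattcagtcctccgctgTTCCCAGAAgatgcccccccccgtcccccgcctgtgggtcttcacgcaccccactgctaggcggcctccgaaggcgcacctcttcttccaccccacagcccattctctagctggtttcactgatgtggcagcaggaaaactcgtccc
Psmb9, chr17:34187281-34187580, minus strand: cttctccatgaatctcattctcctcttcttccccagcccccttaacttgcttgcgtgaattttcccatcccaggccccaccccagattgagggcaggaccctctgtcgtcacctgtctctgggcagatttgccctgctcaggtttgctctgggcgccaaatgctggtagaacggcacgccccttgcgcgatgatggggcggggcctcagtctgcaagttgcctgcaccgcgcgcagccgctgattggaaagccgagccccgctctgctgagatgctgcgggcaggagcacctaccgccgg
Psmb10, chr8:105938343-105938642, minus strand: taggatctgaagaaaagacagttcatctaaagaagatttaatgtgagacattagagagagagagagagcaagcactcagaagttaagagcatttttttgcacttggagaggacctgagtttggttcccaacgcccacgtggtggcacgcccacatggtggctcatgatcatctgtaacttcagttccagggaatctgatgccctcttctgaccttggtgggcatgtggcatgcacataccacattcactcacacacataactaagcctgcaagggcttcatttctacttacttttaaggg
Psmb5, chr14:54617946-54618245, minus strand: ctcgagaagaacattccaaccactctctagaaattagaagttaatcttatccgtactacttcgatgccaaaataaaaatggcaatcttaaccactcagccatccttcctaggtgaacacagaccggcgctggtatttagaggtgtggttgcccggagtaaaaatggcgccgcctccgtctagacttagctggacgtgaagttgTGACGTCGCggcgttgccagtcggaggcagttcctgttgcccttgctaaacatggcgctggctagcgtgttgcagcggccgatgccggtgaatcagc
Psmb6, chr11:70525107-70525406, plus strand: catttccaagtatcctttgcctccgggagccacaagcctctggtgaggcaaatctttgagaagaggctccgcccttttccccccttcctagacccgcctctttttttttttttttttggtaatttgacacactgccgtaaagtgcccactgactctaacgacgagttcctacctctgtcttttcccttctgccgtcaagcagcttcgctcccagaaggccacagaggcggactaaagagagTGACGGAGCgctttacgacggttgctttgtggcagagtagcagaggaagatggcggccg
Psme3, chr11:101315963-101316262, plus strand: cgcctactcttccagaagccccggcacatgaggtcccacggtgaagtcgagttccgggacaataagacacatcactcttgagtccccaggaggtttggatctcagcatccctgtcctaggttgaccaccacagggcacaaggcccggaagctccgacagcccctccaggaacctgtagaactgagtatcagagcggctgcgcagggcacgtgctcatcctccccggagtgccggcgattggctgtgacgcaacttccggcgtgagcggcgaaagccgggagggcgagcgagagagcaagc

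*Psmb5* and *Psmb6* each held 1 match to TGACNNNGC and *Psmb8* 1 match to TTCNNNGAA, while *Psmb9*, *Psmb10* and *Psme3* held none of these letters in the window. The *Psmb8* and *Psmb9* windows lie wholly inside the annotated genes, so sequence before the outermost annotated starts of these genes was not searched. Over all members with a window, 5 of 39 (12.8%) held TGACNNNGC, against 12.4% of all 32851 windows kept. The interferon-stimulated response element was found for 5 members (*Psmb3*, *Psmd4*, *Psmd9*, *Psme1*, *Psmg4*) and in 3.44% of all windows, and TTCNNNGAA for 3 members (*Psmb8*, *Psmd2*, *Psmg1*) and in 8.30% of all windows. AGATAA, the letters bound by GATA factors, was found for 3 members (*Psmc6*, *Psmd9*, *Psmf1*) and in 11.2% of all windows. Some genes have more than 1 window, so a share over members and a share over windows are not the same count, and a match is a description of the sequence and not a binding site.

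Proteasome genes made up 0.717% of all UMIs in WT and 0.679% in Cko. The alpha ring and the constitutive beta ring together gave more of the members' UMIs than all other roles, 27.0% and 28.0% in WT and 27.1% and 29.9% in Cko. The 19S non-ATPases gave 16.0% and 14.5%, and the immunoproteasome subunits 5.39% in WT and 7.62% in Cko. Since a 3′ tag gives at most 1 UMI per molecule whatever the transcript length, levels of different genes are set side by side as captured molecules. Whether different genes are captured equally well was not tested. By this measure the highest alpha subunit was *Psma7* (416 CPM in WT, 405 in Cko) and the lowest *Psma4* (197 and 194). In the beta ring, *Psmb1* was highest (403 and 452 CPM) and *Psmb7* lowest (182 and 169). Alpha ring subunits, which enter the particle in equal numbers, thus differed in captured RNA. *Psmb7* shares its place in the beta ring with *Psmb10*, so its contrast with *Psmb1* is not of this kind. Among the cap ATPases *Psmc3* led (160 and 133 CPM) and *Psmc1* was lowest (83.2 and 71.9). Among non-ATPases *Psmd7* was highest in WT (156 CPM) and *Psmd8* in Cko (177 CPM), while *Psmd3* (64.1 CPM) and *Psmd1* (46.1 CPM) were the lowest. Of the cap chaperones *Psmd9* was highest (102 and 58.4 CPM), with *Psmd10* lowest in WT (47.6 CPM) and *Psmd5* in Cko (35.1 CPM). *Psme1* was the highest activator (189 and 190 CPM) and *Psme3* the lowest (102 and 72.5 CPM), and *Psmg4* (84.2 and 83.3 CPM) stood above *Psmg1* (35.6 and 38 CPM) among the core chaperones. These whole-library levels mix cell types whose numbers differ widely between the libraries, so genotypes are compared only within cell types below.

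Cells of both libraries were clustered together without the proteasome genes, and clusters were named from marker genes. The classes held 646 WT and 1180 Cko neutrophil-like cells, 310 and 526 monocyte-like, 849 and 617 B cell-like, 3388 and 547 erythroid-like, 588 and 490 granulocyte-monocyte progenitor-like (GMP-like), 20 and 63 T/NK-like, and 51 and 9 macrophage-like cells. Neutrophil-like cells fell into clusters that the libraries filled unequally, and so did monocyte-like cells in a finer clustering. Results for these classes are therefore also given cluster by cluster. The monocyte-like clusters of the finer clustering do not hold exactly the cells of the class.

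The share of UMIs that proteasome genes took differed more between cell types than between genotypes. In WT it was highest in monocyte-like cells (1.09%), followed by GMP-like (0.948%), T/NK-like (0.917%), B cell-like (0.863%), erythroid-like (0.669%) and macrophage-like cells (0.511%), and it was lowest in neutrophil-like cells (0.409%). In Cko the order changed at the top, with GMP-like (0.905%) above monocyte-like cells (0.858%), then B cell-like (0.784%), T/NK-like (0.701%), erythroid-like (0.594%), macrophage-like (0.532%) and neutrophil-like cells (0.395%). Part of this order depends on hemoglobin in the total: of non-hemoglobin UMIs, erythroid-like cells gave 0.905% in WT and 0.840% in Cko, above B cell-like cells (0.874% and 0.786%), and WT T/NK-like cells 0.988%, above GMP-like cells (0.957%). Other abundant transcripts stay in these totals, as given for neutrophil-like cells below. The WT interval of T/NK-like cells, which numbered 20, overlapped those of GMP-like and B cell-like cells, and the Cko interval of the 9 macrophage-like cells overlapped that of erythroid-like cells. The share varied among cells of a class as well: the middle 50% of WT monocyte-like cells ran from 0.945% to 1.246% and that of WT neutrophil-like cells from 0.321% to 0.456%, so these ranges did not overlap. A median neutrophil-like cell held 23 proteasome UMIs in either library, and a median GMP-like cell 112 in WT and 136.5 in Cko.

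**Figure D1:**
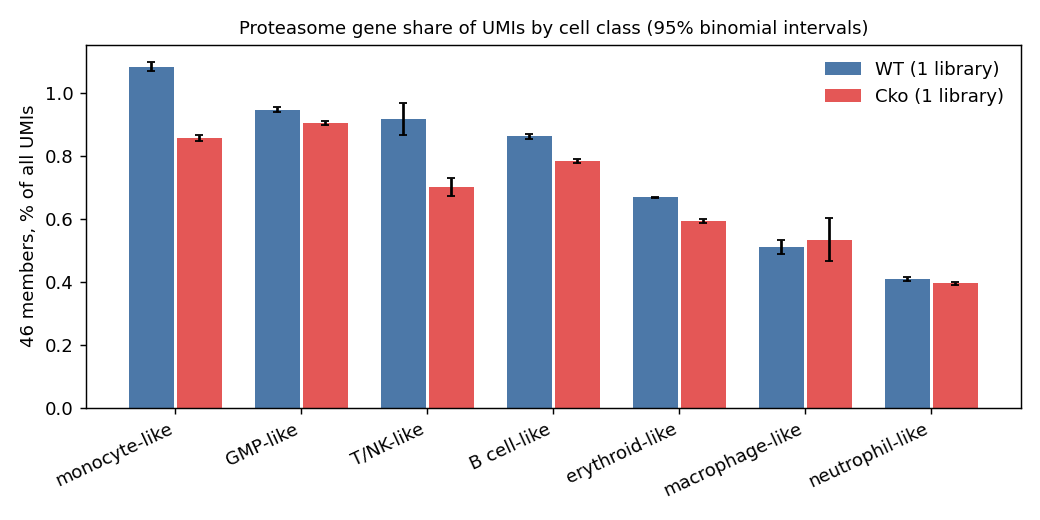
Share of all UMIs taken by the 46 proteasome genes (vertical axis, percent) in each cell class of the WT (blue) and Cko (red) libraries, 1 library each. Bars show exact Poisson 95% intervals for counting error, which the title of the figure calls binomial. Monocyte-like cells stood at 1.09% in WT and 0.858% in Cko, and neutrophil-like cells lowest at 0.409% and 0.395%.

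To keep hemoglobin RNA from lowering every other level, the 5 classes with over 300 cells in each library (neutrophil-, monocyte-, B cell-, erythroid- and GMP-like) were compared on CPM of non-hemoglobin UMIs. Other abundant transcripts stayed in the total. In neutrophil-like cells *S100a8* stood at 198847 CPM in WT and 194652 in Cko, and *S100a9* at 112465 and 116142. These take up the total in the same way, and their part in the neutrophil-like levels was not tested. Of the 46 members, 43 were lowest in neutrophil-like cells in either library and 23 were highest in erythroid-like cells. The same counts were not made over all genes, so they do not set the members apart from other genes. The highest class stood at least 2-fold above the lowest for 41 of 46 members in WT and 40 of 46 in Cko, where the same held for 89.2% of all genes tested in WT and 88.3% in Cko, so a spread of this size was as common among all genes. *Psmb8* varied most in WT, 14.7-fold, from 768 CPM in monocyte-like to 52.1 in erythroid-like cells, and varied 6.64-fold in Cko. *Psmb10* followed with 10.3-fold in WT and 9.88-fold in Cko, from monocyte-like (397 and 199 CPM) to neutrophil-like cells (38.5 and 20.2 CPM). *Psmf1* ran the other way, 8.24-fold in WT and 10.4-fold in Cko, highest in erythroid-like cells (124 and 111 CPM) and lowest in neutrophil-like cells (15.1 and 10.7 CPM). *Psmd9*, a cap chaperone, behaved like *Psmf1*, with 187 CPM in WT and 170 CPM in Cko erythroid-like cells against 23.5 and 24.2 in neutrophil-like cells, a 7.005-fold spread in Cko. The flattest member was the cap subunit *Psmd13*, which varied 1.55-fold in WT and 1.51-fold in Cko. *Psmd10* (1.57-fold) and *Psmd14* (1.68-fold) were next in WT, and *Psma2* (1.54-fold) and *Psmd10* (1.60-fold) in Cko.

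The immunoproteasome subunits were set against the constitutive subunits they replace. Summed over the 3 sites, the ratio of *Psmb8*, *Psmb9* and *Psmb10* to *Psmb5*, *Psmb6* and *Psmb7* was 1.65 in WT and 1.16 in Cko monocyte-like cells, 0.971 and 0.808 in GMP-like cells, 0.909 and 0.896 in B cell-like cells, 0.623 and 0.678 in neutrophil-like cells, and 0.249 and 0.248 in erythroid-like cells. T/NK-like cells gave 1.5 in WT and 2.07 in Cko, from 20 and 63 cells. As sums of captured RNA, then, the immune forms were in excess in monocyte-like and T/NK-like cells of both libraries and were the minority in neutrophil-like and erythroid-like cells. This did not hold at every site. In Cko monocyte-like cells only the beta5 ratio was above 1, and in WT T/NK-like cells the beta1 ratio was 0.804 (0.507 to 1.27). Ratios close to 1, as in B cell-like cells, were made up of unlike sites. At the beta5 site, *Psmb8* over *Psmb5* was 2.16 (1.98 to 2.37) in WT and 1.87 (1.73 to 2.03) in Cko monocyte-like cells, 1.34 and 1.57 in B cell-like cells, 1.30 and 1.27 in GMP-like cells, 0.923 and 0.999 in neutrophil-like cells, and 0.189 and 0.297 in erythroid-like cells. At the beta1 site in WT, *Psmb9* over *Psmb6* was highest in monocyte-like cells (1.02, 0.918 to 1.14). The highest Cko ratio was that of T/NK-like cells (1.14, 0.819 to 1.60), followed by neutrophil-like (0.744) and monocyte-like cells (0.678). Erythroid-like cells had the lowest ratio in both libraries (0.208 in WT and 0.206 in Cko). The beta2 site separated the classes most among leukocytes: *Psmb10* over *Psmb7* was 1.76 (1.56 to 1.98) in WT and 0.986 (0.889 to 1.09) in Cko monocyte-like cells and fell to 0.337 (0.280 to 0.404) and 0.181 (0.153 to 0.214) in neutrophil-like cells. Neutrophil-like cells thus kept *Psmb8* near the level of its partner while *Psmb10* stood at well under its own, 38.3 CPM in WT and 20.1 CPM in Cko. Erythroid-like cells showed the opposite order in WT, with *Psmb10* the closest to its partner (0.369) and *Psmb8* the farthest, while in Cko *Psmb8* was the closest and *Psmb9* the farthest.

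**Figure D2:**
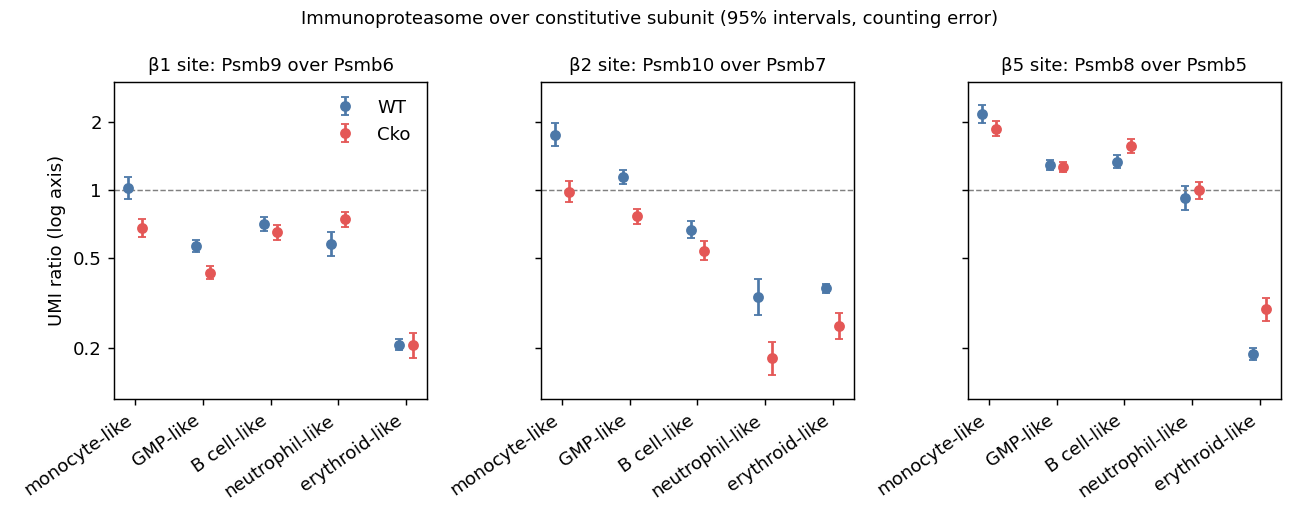
UMI ratio (log axis) of each immunoproteasome subunit to the constitutive subunit it replaces, by cell class, in WT (blue) and Cko (red), with 95% intervals for counting error. *Psmb8* over *Psmb5* ran from 2.16 in WT monocyte-like to 0.189 in WT erythroid-like cells, and *Psmb10* over *Psmb7* was lower in Cko than in WT in each of the 5 classes.

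Over the 14 points given by 7 classes in 2 libraries, the genes whose level followed the summed immunoproteasome subunits most closely were *Pycard* (Pearson's r = 0.951), *Copb1*, *Selplg*, *Atp6v1f*, *Tmsb10*, *Fam195b*, *Tpm4*, *Fkbp1a*, *Tmem173* and *Psme2* (r = 0.896). *Psme1* had r = 0.872 and *Tap1*, the peptide transporter gene beside *Psmb9*, r = 0.668, while the constitutive catalytic sum had r = 0.383 and the median over 5871 genes was 0.185. The points share libraries and differ in depth, so these values describe likeness of pattern over these classes only.

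Between genotypes, most members had ratios under 1, from 31 of 46 in GMP-like to 43 of 46 in monocyte-like cells, and medians over all genes were under 1 as well. The count of members whose higher level was at least 25% above the lower one, among genes with 100 or more UMIs, was 2 higher and 4 lower in Cko neutrophil-like cells (all genes: 11.2% higher, 15% lower), 0 higher and 19 lower in monocyte-like cells (13% and 26.5%), 0 and 6 in B cell-like cells (6.53% and 14.9%), 1 and 10 in erythroid-like cells (13.1% and 24.5%), and 0 and 2 in GMP-like cells (7.57% and 11.7%), each of 46 members. Counted in either direction, the shares of all genes were 26.2%, 39.5%, 21.5%, 37.6% and 19.3% in the same order. As shares of 46, the members counted as lower were 41.3% in monocyte-like cells, above the share of all genes, and 8.70%, 13.04%, 21.7% and 4.35% in neutrophil-, B cell-, erythroid- and GMP-like cells, below it. The median member log2 ratio was -0.10 in neutrophil-like, -0.31 in monocyte-like, -0.16 in B cell-like, -0.19 in erythroid-like and -0.04 in GMP-like cells, against -0.05, -0.11, -0.10, -0.12 and -0.03 over all genes. The ratio was under 1 in all 5 classes for 25 of 46 members, and for 27% of the 3606 genes tested in all 5. *Psmb1*, a core beta subunit, was the 1 member above 1 in all 5 classes (8.65% of all genes were), from 1.05 in erythroid-like to 1.17 in neutrophil-like cells, with every interval above 1. At a ratio of 0.8 or less in all 5 classes there were 0 members and 1.41% of all genes.

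**Figure D3:**
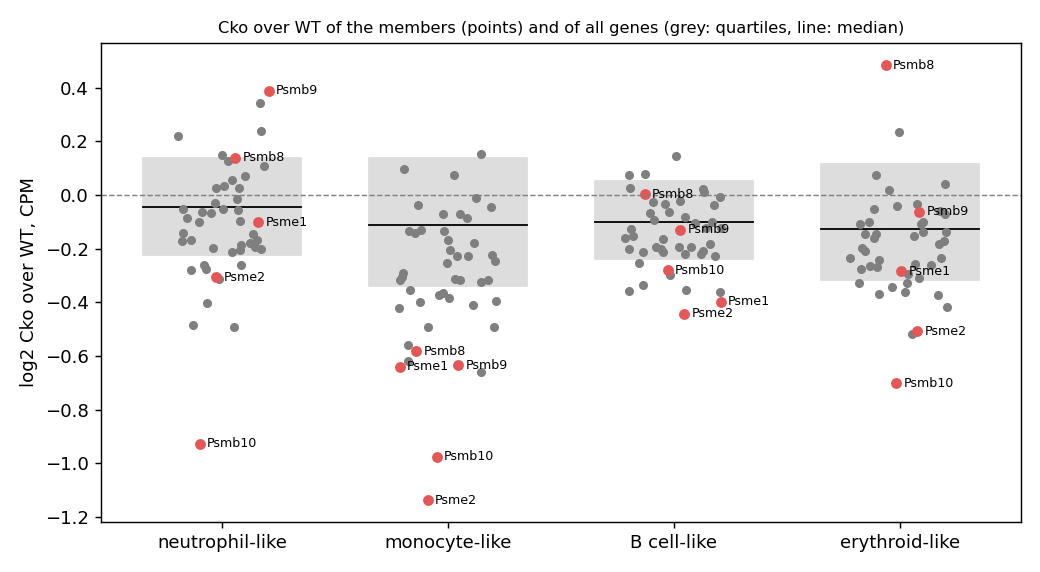
Log2 ratio of CPM, Cko over WT, of each proteasome gene (points; immunoproteasome subunits, *Psme1* and *Psme2* in red and named) in 4 cell classes, with the quartiles (grey box) and median (line) of all genes tested. *Psmb10* and *Psme2* lay below 0 in all 4 classes, and the monocyte-like median of the members was -0.31 against -0.11 for all genes.

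*Psmb10* and *Psme2* were lower in the Cko library in all 5 classes, with every interval below 1. *Psmb10*, the beta2 immune subunit, fell from 38.3 CPM (161 UMIs) in WT to 20.1 CPM (168 UMIs) in Cko neutrophil-like cells, a ratio of 0.526 (0.421 to 0.657), and from 390 to 199 CPM in monocyte-like cells, a ratio of 0.509 (0.459 to 0.564). It was 144 and 118 CPM in B cell-like cells (0.823, 0.742 to 0.914), 67.5 and 41.5 CPM in erythroid-like cells (0.615, 0.541 to 0.697) and 217 and 147 CPM in GMP-like cells (0.679, 0.629 to 0.733). It was also lower in both neutrophil-like clusters, at 0.467 (0.359 to 0.607) in the cluster led by *Chil3* and *Ngp* and 0.713 (0.439 to 1.19) in the cluster led by *Mmp8* and *Retnlg*, where the interval reached 1. In the 2 monocyte-like clusters of a finer clustering it was 0.517 (0.460 to 0.581) and 0.480 (0.362 to 0.645), so the lower monocyte-like level was as large within either. Among B cell-like cells of the cluster led by *Igkc* and *Iglc2*, with 47 and 41 *Psmb10* UMIs, the ratio was 0.973 (0.624 to 1.51).

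*Psme2*, the beta chain of the PA28 activator, was 136 CPM in WT and 110 CPM in Cko neutrophil-like cells (0.809, 0.728 to 0.899), 605 and 275 CPM in monocyte-like cells (0.455, 0.418 to 0.495), 242 and 178 CPM in B cell-like cells (0.736, 0.678 to 0.7999), 128 and 89.8 CPM in erythroid-like cells (0.704, 0.645 to 0.767) and 336 and 244 CPM in GMP-like cells (0.726, 0.684 to 0.771). How reads were divided between *Psme2* and its near copy *Psme2b*, which only the Cko table lists, is uncertain. With the *Psme2b* UMIs of the Cko library added to *Psme2* the ratios were 0.885, 0.505, 0.816, 0.751 and 0.783 in the same order, all with intervals below 1. Its partner *Psme1* was lower with intervals below 1 in monocyte-like cells (440 and 283 CPM; 0.642, 0.586 to 0.703), B cell-like cells (287 and 217 CPM; 0.759, 0.704 to 0.818), erythroid-like cells (138 and 114 CPM; 0.822, 0.760 to 0.888) and GMP-like cells (295 and 255 CPM; 0.864, 0.813 to 0.918), while the ratio was 0.932 (0.833 to 1.04) in neutrophil-like cells.

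*Psmb8* and *Psmb9* were both lower together with *Psmb10* in monocyte-like and GMP-like cells, but not both elsewhere. In neutrophil-like cells *Psmb9* was higher in Cko, 131 against 100.14 CPM (1.31, 1.17 to 1.47), and this was so in either cluster (1.28, 1.13 to 1.45, and 1.69, 1.26 to 2.32). In monocyte-like cells both were lower in Cko: *Psmb8* went from 756 to 505 CPM (0.668, 0.624 to 0.716) and *Psmb9* from 336 to 216 CPM (0.645, 0.581 to 0.716). In GMP-like cells *Psmb8* went from 440 to 417 CPM (0.948, 0.903 to 0.995) and *Psmb9* from 203 to 166 CPM (0.817, 0.758 to 0.881), smaller differences than that of *Psmb10*. B cell-like cells had 369 and 370 CPM of *Psmb8*, a ratio of 1.003 (0.943 to 1.07), and 237 and 217 CPM of *Psmb9* (0.915, 0.845 to 0.989). *Psmb8* was higher in Cko erythroid-like cells, 53.9 against 38.5 CPM (1.40, 1.24 to 1.57), and its ratio was 1.22 (1.08 to 1.38) among the erythroid-like cells with the least hemoglobin, where most of these UMIs lay. In those cells *Psmb9* was lower with *Psmb10*, at 0.752 (0.651 to 0.865) and 0.587 (0.512 to 0.671). At 10 to 50% hemoglobin *Psmb9* was higher (2.43, 1.55 to 3.74), from 72 WT and 32 Cko UMIs. All 3 immune subunits thus had intervals below 1 in monocyte-like and GMP-like cells, while in neutrophil-like cells *Psmb9* was higher and *Psmb10* lower in the same library.

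In monocyte-like cells the whole group was lower in Cko: the share of UMIs was 1.09% in WT and 0.858% in Cko, a ratio of 0.790 (0.777 to 0.804). In the finer clustering, the ratio was 0.831 (0.815 to 0.847) within the cluster led by *Fn1* and *S100a4* (280 WT and 274 Cko cells). Within the cluster led by *Wfdc17* and *Sirpb1c* (40 and 278 cells) it was 0.809 (0.765 to 0.856). The drop was uneven across roles. The activators stood at 0.543 of the WT level, the immune subunits at 0.621 and *Psmf1*, from 55 and 64 UMIs, at 0.634, while the ATPases were at 0.799, the alpha ring at 0.801, the non-ATPases at 0.860, the constitutive beta ring at 0.917, the core chaperones at 0.920 and the cap chaperones at 0.947. The immune to constitutive ratio fell accordingly, 1.65 to 1.16 (ratio 0.706, 0.653 to 0.764), and did so in either cluster (0.678, 0.623 to 0.739, and 0.532, 0.409 to 0.687). *Psmb1* (1.11, 1.04 to 1.20), *Psmg2* (1.07, 0.761 to 1.52) and *Psmd5* (1.05, 0.765 to 1.46) had the highest ratios there, and the last pair cannot be told from 1 at this depth. *Psmb5*, the beta5 subunit, was 349 CPM in WT and 270 CPM in Cko (0.772, 0.699 to 0.852), whereas *Psmb6* (0.974) and *Psmb7* (0.907) had intervals that included 1. When each library was clustered on its own, the immune to constitutive log2 ratio of Cko over WT was -0.12 in place of -0.50, and 32 of 46 members (69.6%) passed the 25% mark beside 58.4% of all genes. Within the *Fn1*-led cluster 12 of 43 members were lower by that mark and 0 higher (17.7% and 9.93% of all genes), and within the *Wfdc17*-led cluster 8 of 28 were lower and 3 higher (24.1% and 23.9%).

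Neutrophil-like cells as a class had a share of 0.967 (0.949 to 0.985) of WT, but within the *Chil3*-led cluster the ratio was 1.01 (0.992 to 1.03) and within the *Mmp8*-led cluster 1.003 (0.956 to 1.05). The *Mmp8*-led cluster had the lower share (0.308% in WT, 0.309% in Cko, against 0.429% and 0.435%) and held 551 of 1180 Cko cells but 173 of 646 WT cells, which moves with the class value, and its part in that value was not tested. With each library clustered on its own, the class share had a log2 ratio of -0.29 in place of -0.05 and 30 members passed the 25% mark in place of 6, and 59.1% of all genes passed it too, against 26.2%, with an all-gene median log2 ratio of -0.28 in place of -0.05. The class values thus depend on which cells are counted as neutrophil-like. Besides *Psmb10* and *Psmb9*, the 3 lowest and 3 highest ratios included *Psmf1* (0.712, 63 and 89 UMIs), the cap subunit *Psmd2* (0.714, 0.590 to 0.866), *Psmd3* (1.27, 0.944 to 1.72) and *Psme3* (1.18, 0.952 to 1.47). *Psmd2* was lower in all 5 classes with every interval below 1, from 0.712 in monocyte-like to 0.865 in GMP-like cells, and so was the alpha subunit *Psma7*, from 0.802 to 0.909.

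B cell-like cells had a share of 0.863% in WT and 0.784% in Cko. The lowest ratios were those of the 3 activators, *Psme2* (0.736), *Psme1* (0.759) and *Psme3* (0.778, 0.678 to 0.892), and the highest those of *Psma5* (1.11, 1.02 to 1.20), *Psmb1* (1.06) and *Psmd10* (1.05, 0.875 to 1.27). The immune to constitutive ratio was 0.909 and 0.896. In GMP-like cells the chaperone *Psmg1* had the highest ratio (65.9 and 81.2 CPM; 1.23, 1.09 to 1.39), with *Psmd8* (1.11, 1.03 to 1.19) next.

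Genes of related pathways were counted by the same 25% rule. Of the MHC class I loading genes, 6 of 10 tested were higher and 0 lower in Cko neutrophil-like cells, 4 higher and 5 lower of 10 in monocyte-like, 4 and 0 of 11 in B cell-like and 4 and 1 of 10 in erythroid-like cells, beside the shares for all genes given above. The class I heavy chain *H2-K1* was 64.9 CPM in WT and 227 CPM in Cko neutrophil-like cells (3.50, 3.08 to 3.99) and 239 and 493 CPM in monocyte-like cells (2.06, 1.86 to 2.29). *H2-D1* was 142 and 383 CPM in erythroid-like cells (2.69, 2.57 to 2.83) and *H2-Q7* 5.62 and 32.7 CPM in B cell-like cells (5.82, 3.995 to 8.72). Class I heavy chains are a family of near-identical, polymorphic genes, so how their reads were divided is uncertain. The lowest of that list were *Tapbp*, the tapasin bridging TAP to class I, in erythroid-like (0.549, 0.472 to 0.635) and B cell-like cells (0.813), the chaperone *Calr* in monocyte-like cells (0.520, 0.448 to 0.603) and *Pdia3* in neutrophil-like cells (0.886).

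Interferon response genes were lower in Cko in 5 of 8 tested in monocyte-like, 6 of 6 in B cell-like and 4 of 8 in erythroid-like cells with 0 higher, and 3 of 7 were higher with 0 lower in neutrophil-like cells. Of all genes, 26.5%, 14.9% and 24.5% were lower in monocyte-, B cell- and erythroid-like cells, and 11.2% were higher in neutrophil-like cells. *Gbp2* was the lowest in monocyte-like cells, 50.5 and 10.2 CPM (0.202, 0.134 to 0.297), and *Isg15* in B cell-like cells, 15.8 and 3.90 CPM (0.246, 0.146 to 0.399). *Rtp4* was highest in neutrophil-like cells, 11.9 and 36.1 CPM (3.04, 2.24 to 4.18), and lowest in erythroid-like cells (0.422, 0.307 to 0.570). The list's median log2 ratio was -0.06 in neutrophil-like, -0.68 in monocyte-like, -0.89 in B cell-like and -0.43 in erythroid-like cells. Over all genes the medians were -0.05, -0.11, -0.10 and -0.12. *Akirin2*, which brings proteasomes into the nucleus, was the lowest related proteasome factor in all 4 classes, with ratios of 0.570 in neutrophil-like, 0.697 in monocyte-like, 0.679 in B cell-like and 0.705 in erythroid-like cells. The core maturation factor *Pomp* was 139 and 169 CPM in neutrophil-like cells (1.22, 1.10 to 1.34). Related factors past this mark numbered 0 higher and 3 lower of 10, 2 and 3 of 11, 0 and 1 of 12 and 0 and 2 of 12 in neutrophil-, monocyte-, B cell- and erythroid-like cells. Beside this list and the next, the shares of all genes higher and lower were 11.2% and 15%, 13% and 26.5%, 6.53% and 14.9%, and 13.1% and 24.5%. Ubiquitin and shuttle genes numbered 2 higher and 2 lower of 25, 1 and 11 of 25, 0 and 6 of 28 and 3 and 8 of 29 in the same order, with the interferon-induced conjugating enzyme *Ube2l6* lowest in monocyte-like cells (0.458, 0.332 to 0.631) and *Fbxo7* in B cell-like cells (0.469, 0.316 to 0.687). *Rps27a* was the highest in monocyte-like (1.27) and *Ube2r2* in neutrophil-like (1.53) and B cell-like cells (1.21).

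Erythroid-like cells were divided into 4 stages by the share of their UMIs from hemoglobin genes: under 1%, 1 to 10%, 10 to 50% and at least 50%. These held 552, 516, 719 and 1601 WT cells and 107, 42, 106 and 292 Cko cells. The proteasome share of all UMIs fell over these stages in WT, from 0.953% to 0.868%, 0.651% and 0.221%, and in Cko from 0.809% to 0.794%, 0.602% and 0.277%. Much of that fall is hemoglobin RNA filling the total. As a share of non-hemoglobin UMIs the members went from 0.956% to 0.905%, 0.872% and 0.770% in WT, a last-to-first ratio of 0.805 (0.793 to 0.817), but from 0.810% to 0.829%, 0.864% and 0.9395% in Cko, a ratio of 1.16 (1.13 to 1.19). The proteasome UMIs in an average cell fell in both, from 169 to 12.7 in WT and from 188 to 21.2 in Cko, so a rising share is a slower loss than that of other RNA.

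Over the same stages the median gene among all tested went to 0.631 of its first-stage level in WT and 0.732 in Cko, and the median member to 0.870 and 1.21. At the 1.5-fold mark 8 members were higher and 21 lower of 46 in WT (25.8% and 51.8% of all genes), and 17 were higher and 11 lower of 45 in Cko (31% and 47.5%). The roles parted in the same order in both libraries. The inhibitor *Psmf1* rose 3.97-fold in WT and 4.44-fold in Cko, the cap chaperones 1.52- and 2.42-fold, the activators 1.35- and 2.20-fold, the ATPases 1.30- and 2.08-fold and the non-ATPases 1.10- and 1.54-fold. The alpha ring went to 0.668 in WT and 0.957 in Cko and the constitutive beta ring to 0.576 and 0.877. The core chaperones fell to 0.185 and 0.129, and the immune subunits fell furthest, to 0.119 and 0.107. Cap and regulator genes thus took a growing share of the members' UMIs, and core chaperones and immune subunits a shrinking one.

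**Figure D4:**
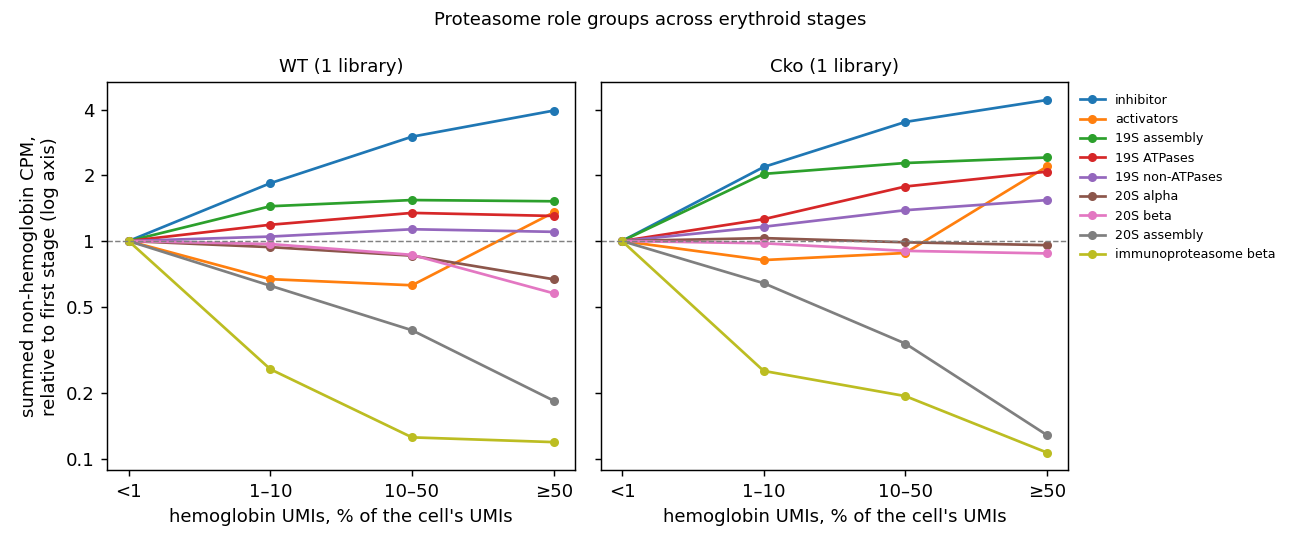
Summed level of each proteasome role group (CPM of non-hemoglobin UMIs, relative to the first stage, log axis) over 4 erythroid stages set by the hemoglobin share of a cell's UMIs, in WT (left) and Cko (right), 1 library each. *Psmf1* (inhibitor) ended at 3.97 and 4.44 times its first level and the immune subunits at 0.119 and 0.107.

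*Psme3*, the nuclear PA28 gamma, rose most. It was 112 CPM of non-hemoglobin UMIs in the first WT stage, then 90.3, 134 and 660 CPM, a last-to-first ratio of 5.87 (5.44 to 6.34), and in Cko 93.6, 101, 181 and 812 CPM, a ratio of 8.67 (7.42 to 10.2). Most of the rise lay in the last stage, though in Cko the third stage already stood at 181 CPM. The rise went on within the last stage: by erythroid cluster, from the one led by *Mt2* and *Mt1* to that led by *Bpgm* and *Fam220a*, *Psme3* went from 112 through 111, 523 and 1174 to 1700 CPM in WT and from 97.0 through 147, 565 and 1216 to 1711 CPM in Cko, the last from 112 and 37 UMIs. Per cell it went from 1.99 UMIs in the first to 1.09 in the last stage of WT and from 2.18 to 1.83 in Cko, a smaller loss than that of the members together. *Psme1* and *Psme2*, by contrast, fell, to 0.249 (0.211 to 0.291) and 0.417 (0.366 to 0.473) in WT and 0.359 and 0.619 in Cko, so the rise of the activators was that of *Psme3*.

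*Psmf1* climbed from stage to stage, with 63.3, 117, 191 and 251 CPM in WT and 52.6, 115, 185 and 234 CPM in Cko. Next in WT was *Psmd5* (63.7 to 182 CPM; 2.85, 2.53 to 3.22) and in Cko *Psmd10* (40.2 to 155 CPM; 3.85, 2.90 to 5.13), both cap assembly chaperones. *Psmd5* rose alike in Cko (2.75, 2.05 to 3.68), while *Psmd10* rose 1.56-fold (1.33 to 1.83) in WT. At the other end *Psmg4*, a core chaperone, fell from 155 to 11.0 CPM in WT (0.0706, 0.0471 to 0.102), and in Cko from 139 CPM to a single UMI (ratio 0.0109, 0.000275 to 0.0611). *Psmg1* fell from 76.8 to 7.93 CPM in WT (0.103, 0.0636 to 0.159), and in Cko from 71.1 CPM to 0 UMIs, at least 15.6-fold lower when 3 UMIs over the stage are taken as the floor.

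The immune subunits left early. Their ratio to the constitutive catalytic subunits was 0.451, 0.119, 0.0640 and 0.0769 over the WT stages and 0.403, 0.104, 0.0836 and 0.0390 over the Cko stages. *Psmb8* went from 1063 UMIs (109 CPM of non-hemoglobin UMIs) in the first WT stage to 51 UMIs (19.3 CPM) in the last, *Psmb9* from 125 to 14.7 CPM and *Psmb10* from 171 to 14.3 CPM. In Cko the last stage held 11, 7 and 5 UMIs of them. In the first stage the beta2 site was the one with most immune form, with *Psmb10* over *Psmb7* at 0.744 (0.697 to 0.793) in WT and 0.522 (0.446 to 0.610) in Cko, and *Psmb8* over *Psmb5* dropped to 0.0402 in WT and 0.0366 in Cko by the second stage. UMIs of other cells' genes were present in the last stage: 5 neutrophil and B cell genes (*S100a8*, *S100a9*, *Lyz2*, *Igll1*, *Cd79a*) stood there at 1.22% to 2.14% of their own class's level in WT and 1.49% to 3.595% in Cko. The last *Psmb8* level, 19.3 CPM in WT and 16.7 CPM in Cko, was 15.5% and 12.3% of that in neutrophil-like cells, 124 and 136 CPM, while monocyte-like cells held 768 and 507 CPM. *Psmb10* stood at 37.2% and 37.6% of its neutrophil-like level. The part of free RNA in these levels was not tested.

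**Figure D5:**
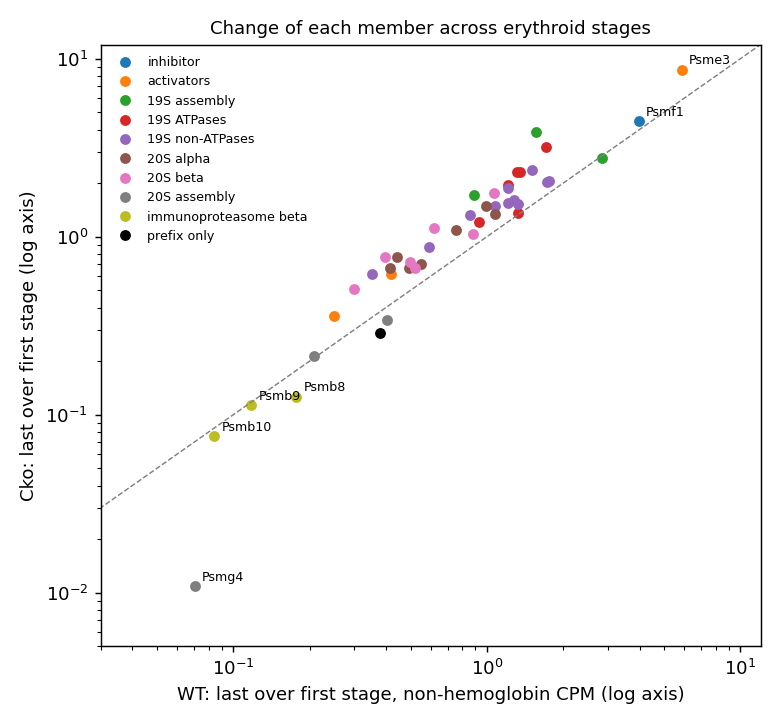
Ratio of last to first erythroid stage (CPM of non-hemoglobin UMIs, both axes log) of each proteasome gene in WT (horizontal) and Cko (vertical), coloured by role, with the line of equal change dashed. *Psme3* lay at 5.87 and 8.67 and *Psmb10* at 0.0841 and 0.0759, and *Psmg1*, with 0 UMIs in the last Cko stage, is not drawn.

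Between genotypes the erythroid stages differed in direction. The share of all UMIs, Cko over WT, was 0.849 (0.836 to 0.862) in the first stage, 0.914 (0.891 to 0.938) in the second, 0.924 (0.901 to 0.948) in the third and 1.253 (1.22 to 1.29) in the last. In the first stage 19 of 46 members were lower in Cko by the 25% rule and 0 higher, beside 27.4% and 12.4% of all genes, while the second had 1 of 45 higher and 8 lower (11.7% and 24.4% of all genes) and the third 2 of 44 higher and 9 lower (7.86% and 34.1%). In the last stage 21 of 39 were higher and 2 lower, beside 23.9% and 32.6%. Hemoglobin took 71.3% of the UMIs of the last stage in WT and 70.5% in Cko. Within it, the members' share of non-hemoglobin UMIs was 1.14 (1.08 to 1.20) times WT among cells with 50 to 60% hemoglobin, 1.22 (1.16 to 1.28) at 60 to 70%, 1.24 (1.17 to 1.33) at 70 to 80% and 1.42 (1.30 to 1.54) at 80 to 90%, while the 8 Cko cells above 90% gave 1.11 (0.744 to 1.61). The constitutive beta ring was the role furthest above WT in the last stage (1.44), followed by the ATPases (1.29), the alpha ring (1.24), the activators (1.22), the cap chaperones (1.22) and the non-ATPases (1.19), while the core chaperones were below it (0.619, 0.416 to 0.895). The immune subunits, with 128 and 23 UMIs, had a ratio of 0.742 and an interval that included 1 (0.454 to 1.16). Median depth differed too, 5546 UMIs in WT and 7458.5 in Cko cells of the last stage, and its part in these values was not tested.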

How the data were processed

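Per the labels and the study's methods, bone marrow cells of 1 WT and 1 Cko mouse were run on the 10x Chromium 3′ platform, and the authors' Cell Ranger tables (GRCm38; version not given in the sources used here) were deposited as whole UMI counts per gene and cell. Every gene listed reaches at least 4 UMIs in some cell, so rarer genes are not analysed here. Rows and columns of totals were dropped, and barcodes with under 200 genes removed. Called doublets (Scrublet in scanpy 1.11.5; 127 WT, 51 Cko) were kept and removed in an alternative. Cells of both libraries were clustered with Seurat 5.3.0 (2000 variable genes, 20 components, lowest resolution with at least 14 clusters), leaving out the members and list genes. Clusters were named from 3 or more detected markers, and 2 stayed unnamed, 1 of them by hand since its leading genes went against the name. UMIs were summed per class and library. Ratios have exact conditional 95% intervals and single levels exact Poisson intervals. Genes needed 100 UMIs over both groups compared to be counted. Named genes were the immune and constitutive catalytic subunits, *Psme1* and *Psme2* in each class, the highest and lowest member of each role, and the 3 largest and 3 smallest ratios of each comparison. The calculations were tested on simulated counts. Members, lists and rules were chosen with earlier results of these data known. Cluster-by-cluster and stage-by-stage values, the finer hemoglobin ranges and the sum with *Psme2b* were added after the data were seen. The lowest and highest genes of the ubiquitin list are not reported here for every class.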

Additional observations from a re-analysis of the deposited data

Results flagged for a closer look

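The change of the proteasome share over the erythroid stages went opposite ways in the libraries: the last-to-first ratio on non-hemoglobin UMIs was 0.805 in WT and 1.16 in Cko. Set side by side, the Cko-over-WT ratio of the share of all UMIs was 0.849, 0.914 and 0.924 in the stages with under 1%, 1 to 10% and 10 to 50% hemoglobin and 1.253 in the stage with at least 50%. The difference was not tested, since each genotype is 1 library. Cells of the last stage had a median of 5546 UMIs in WT and 7458.5 in Cko, and the second Cko stage held 42 cells.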

How the results depend on the processing

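Values here are log2 ratios of Cko over WT unless said otherwise. Clustering each library on its own, in place of both together (share -0.05 for neutrophil-like and -0.14 for B cell-like cells), gave a share of -0.29 for neutrophil-like and -0.073 for B cell-like cells, an immune to constitutive ratio of 0.40 for erythroid-like (-0.00 together) and -0.12 for monocyte-like cells (-0.50 together), and counts past the 25% mark of 30, 32 and 3 members in neutrophil-, monocyte- and B cell-like cells (of all genes 59.1%, 58.4% and 22.3%) against 6, 19 and 6 (26.2%, 39.5% and 21.5%). It also moved the log2 of the last-to-first share in Cko from 0.21 to 0.28. Dividing by the median ratio of all genes left 1, 5 and 10 members past the 25% mark in B cell-, erythroid- and monocyte-like cells (18.5%, 32.6% and 36.5% of all genes), against 6, 11 and 19. Leaving hemoglobin out of the total gave a share of -0.11 and 5 members in erythroid-like cells (33.9% of all genes). The mean of the cells' shares gave -0.078, -0.38, -0.17 and -0.14 for neutrophil-, monocyte-, B cell- and erythroid-like cells, where summed UMIs gave -0.05, -0.34, -0.14 and -0.17. Removing called doublets moved the monocyte-like share to -0.31, and asking for 500 genes per barcode to -0.30 and the last-to-first share in WT from -0.31 to -0.29. Stages set by quartiles gave -0.41 for the latter. With at least 300 UMIs per gene 3 of 38 members were counted in neutrophil-like cells (20.4% of all genes). Among the values chosen after seeing the data, the neutrophil-like share was 0.017 in the *Chil3*-led and 0.0038 in the *Mmp8*-led cluster, which turns its direction, and the latter had 2 of 28 members past the 25% mark (32.2% of all genes). The erythroid-like share was -0.24, -0.13, -0.11 and 0.33 from the first to the last stage, turning in the last, with immune ratios of -0.16, -0.20, 0.38 and -0.98, and 19 members past the 25% mark in the first and 23 in the last stage (39.8% and 56.5% of all genes). The monocyte-like share was -0.27 in the *Fn1*-led and -0.31 in the *Wfdc17*-led cluster, with 12 of 43 and 11 of 28 members past the 25% mark (27.7% and 47.95% of all genes) and an immune ratio of -0.91 in the latter. The cause of these changes was not tested. No monocyte-like class was named with at least 10 clusters, so that setting gave no value for it. No paired analysis was possible because each genotype is 1 library. Counting error limits genes with few UMIs in a class, such as *Psmf1*, *Psmd3* and *Psmc3ip* in neutrophil-like cells.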
